A study of Mus musculus with 6 samples.

Results

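The miR-30 family was measured in livers of mice with carbon tetrachloride (CCl4)-induced fibrosis and in livers of control mice. Its members were taken as every mouse miRNA on the array named miR-30a to miR-30e, with either arm of the hairpin. The 5 guides were mmu-miR-30a-5p, mmu-miR-30b-5p, mmu-miR-30c-5p, mmu-miR-30d-5p and mmu-miR-30e-5p, written from here on without the species prefix. This rule gave 11 of the 1247 miRNAs, namely 5 arms from the 5′ side (5p, the guides) and 6 from the 3′ side (3p). Of these, 8 were detected on all 6 arrays and could be tested, among 166 such miRNAs. They were the 5 5p arms and 3 of the 6 3p arms, miR-30a-3p, miR-30c-2-3p and miR-30e-3p. All mice were male C57BL/6 animals, 7 weeks old when treatment began. The CCl4 group was injected intraperitoneally with 0.6 mL/kg CCl4 in corn oil 2 times a week for 10 weeks, and the corn oil group received the same volume of the vehicle alone. Total RNA of whole liver was labeled with 1 dye and hybridized to 1 array per mouse, with 3 mice in each group. All 6 arrays lay on 1 slide read in 1 scan. Each group filled its own row of the slide, so slide row and treatment cannot be told apart.

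A miRNA pairs with sites in messenger RNAs through its seed, bases 2 to 8 from the 5′ end, and lowers the stability or translation of those messages. The miR-30 guides share their seed, so they can recognize an overlapping set of targets. The family is expressed in many epithelial tissues, liver included, and is known for restraining epithelial-to-mesenchymal transition and for low levels in activated fibroblasts. Its members miR-30a to miR-30e arise from 3 pairs of neighboring genes, Mir30a with Mir30c-2, Mir30c-1 with Mir30e, and Mir30b with Mir30d. The first 2 pairs have separate genes for one identical guide, miR-30c-5p, whose signal therefore cannot be divided between them.

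The 5p guides are shown first because the shared seed defines the family. Sequences and positions are those of RefSeq on build GRCm38.p6, matched by name for 7 of the 11 arms, and capitals mark the seed.
miR-30a-5p: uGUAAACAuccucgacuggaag
miR-30c-5p: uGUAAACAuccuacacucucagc
miR-30e-5p: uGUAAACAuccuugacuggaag
miR-384-5p: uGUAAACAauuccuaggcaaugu
The 3p arms are shown because they fall into 2 other seed groups, again with capitals at the seed.
miR-30a-3p: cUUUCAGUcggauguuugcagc
miR-30e-3p: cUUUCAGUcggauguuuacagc
miR-30c-1-3p: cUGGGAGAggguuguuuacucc
miR-30c-2-3p: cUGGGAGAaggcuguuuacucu

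The arms of miR-30b and miR-30d were not matched to a sequence, so these guides are missing from the count that follows. The seed GUAAACA stood at bases 2 to 8 in 4 of the 1017 miRNAs of the array that matched a RefSeq mature sequence, a share of 0.393%. The fourth was miR-384-5p, which carries the miR-30 seed under another name and is encoded on the X chromosome, at chrX:105344332-105344354 on the minus strand. The miR-30a and miR-30e guides differed at 1 of 22 positions (C13U, with miR-30a-5p first and positions counted from the 5′ end). Each of them differed from miR-30c-5p at 5 of 22 positions, all after a shared run of 12 bases. The 3p arms of miR-30a and miR-30e also differed at 1 position (G18A, miR-30a-3p first), and those of the miR-30c genes at 3 (G9A, U12C and C22U, miR-30c-1-3p first). For arms that differ at a single base, the part of cross-hybridization in their signals was not tested.

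The hairpins of 3 genes are shown with both mature arms in capitals, since the arms of 1 hairpin are compared below.
Mir30a: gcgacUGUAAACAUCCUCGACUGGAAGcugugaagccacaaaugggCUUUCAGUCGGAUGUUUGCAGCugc
Mir30c-2: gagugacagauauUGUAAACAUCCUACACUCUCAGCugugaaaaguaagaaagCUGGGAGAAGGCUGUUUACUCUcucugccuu
Mir30e: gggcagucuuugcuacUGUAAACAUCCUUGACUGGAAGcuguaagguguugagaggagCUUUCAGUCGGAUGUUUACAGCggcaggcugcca
Mir30a lies at chr1:23272269-23272339 and Mir30c-2 at chr1:23291701-23291784, both on the plus strand and 19361 bases apart. No protein-coding gene spans them. Mir30e lies at chr4:120772606-120772697 and Mir30c-1 at chr4:120769534-120769622, on the minus strand and 2983 bases apart, and both lie within the span of Nfyc, which encodes the C subunit of the CCAAT-binding factor NF-Y. Mir30e also lies within the span of Mir30f, a miRNA gene outside the names taken here. Mir30b and Mir30d neighbor each other, with Zfat as the nearest protein-coding gene.

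One array stood apart from the rest, which bears on every value of the family. On the corn oil arrays 186 to 193 miRNAs were detected, on the first CCl4 arrays 245 and 227, and on the third CCl4 array 334. The summed signal of detected miRNAs lay between 167865 and 177351 on the first 5 arrays and was 316413 on the third CCl4 array. The rank correlation of signals over the 166 miRNAs was at least 0.979 between arrays of a group without that array, and 0.856 and 0.860 between it and the other CCl4 arrays. The hepatocyte marker miR-122-5p gave 16613 to 18345 units on the corn oil arrays, 13110 and 15544 on the first CCl4 arrays, and 2158 on the third. It was thus detected on every array, and lowest by far on the third CCl4 array. Results are given with and without that array, and the array signals themselves come first.

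The guides, the strands loaded to silence targets, had all their spots well above background on every array. The total signal of miR-30a-5p, in arbitrary intensity units before any scaling between arrays, was 522, 484 and 518 in corn oil livers 1 to 3 and 501, 531 and 1553 in CCl4 livers 1 to 3. The first CCl4 livers thus fell within or just above the corn oil range, and the third CCl4 liver gave 3.01 times their mean.

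Every other guide showed the same layout, 5 arrays close together and the third CCl4 array far above them. miR-30b-5p gave 136, 126 and 143 units in corn oil and 144, 130 and 633 in CCl4 livers. miR-30c-5p, the guide made from both Mir30c genes, gave 289, 262 and 295 units against 246, 261 and 1170. It was the only guide for which both of the first CCl4 livers lay below all corn oil livers.

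The last guides kept this layout. miR-30d-5p gave 48.4, 45.9 and 55.2 units in corn oil and 62.5, 54.3 and 272 in CCl4 livers. miR-30e-5p gave 124, 118 and 125 units against 119, 115 and 663. The coefficient of variation within the corn oil group ran from 3.15% for miR-30e-5p to 9.73% for miR-30d-5p, whereas within the CCl4 group it ran from 69.5% to 105%. On this unscaled signal the groups overlapped for all 8 tested arms, while 65.7% of the 166 miRNAs did not overlap.

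The 3p arms, the partner strands that are often degraded, were read from fewer positive spots except for miR-30a-3p. miR-30a-3p gave 31.0, 32.8 and 32.9 units in corn oil and 30.7, 32.6 and 100.0 in CCl4 livers. miR-30c-2-3p gave 7.35, 7.73 and 7.66 units against 8.28, 7.67 and 21.4. miR-30e-3p gave 9.09, 9.06 and 9.56 units against 9.48, 8.68 and 57.2. All 3 repeated the layout of the guides, with the third CCl4 liver alone above the rest. For miR-30c-2-3p and miR-30e-3p, 1 of 2 probes carried the signal on the first 5 arrays. The second probe of miR-30e-3p was counted on the third CCl4 array only, so that its total there adds a probe the other totals lack.

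**Figure D1:**
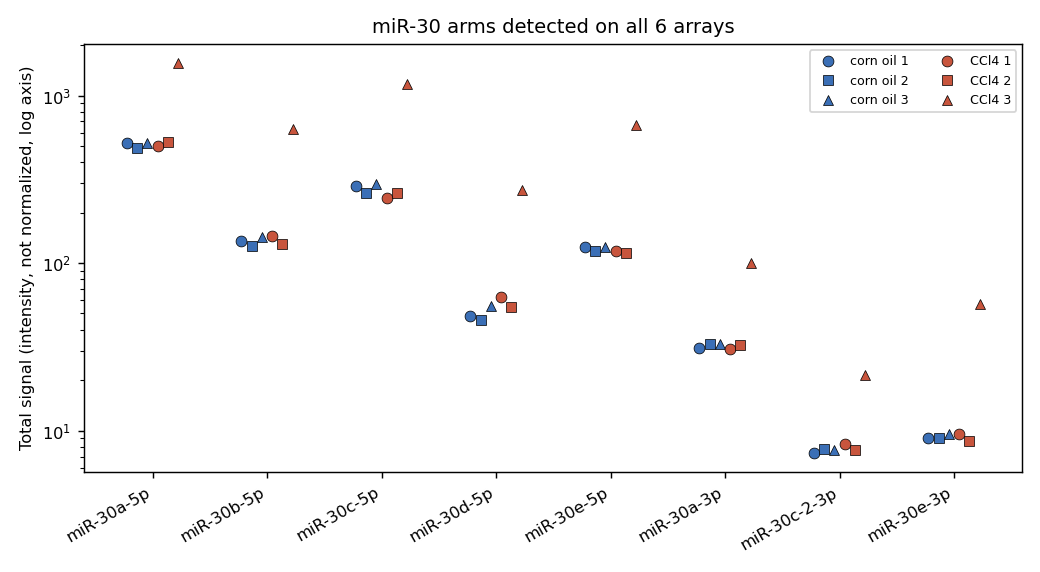
Total signal (intensity units before scaling, log axis) of the 8 miR-30 arms detected on all 6 arrays, 1 point per array, with corn oil in blue and CCl4 in red and symbols for replicates 1 to 3. The third CCl4 array (red triangle) lies above the other 5 for every arm, for instance at 1553 against 484 to 531 for miR-30a-5p.

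The other 3 members were near the limit of the array. miR-30c-1-3p was listed as undetected in every corn oil liver and at 2.32, 2.19 and 2.90 units in the CCl4 livers, but at most 10.0% of the spots of any of its probes were well above background, so no fold is given. miR-30b-3p and miR-30d-3p were detected only in CCl4 liver 3, at 8.41 and 3.34 units. miR-384-5p, the other carrier of the seed among the sequences searched, was detected in no liver.

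To compare the groups on the scale the study's methods name, the signals were quantile normalized and the 166 miRNAs fitted together with limma. On that scale all 8 tested arms had lower means in CCl4 than in corn oil livers, as did 58.4% of all miRNAs, although without normalization all 8 had higher means and 6.63% of all miRNAs lower ones. On the normalized scale miR-30a-3p changed by -0.88 on the log2 scale (SE 0.19, limma, adjusted p = 0.042), the 1 member that passed the adjusted p, and it missed the 2-fold limit. Its adjusted p from limma rose to between 0.068 and 0.19 when corn oil array 1, 2 or 3 or CCl4 array 1 or 2 was left out, and to 0.091 with scaling to the 75th percentile, 0.27 without a detection filter, 0.050 with averaged probes, 0.090 with the replicate number as a block and 0.41 without scaling. That adjusted p stayed under 0.05 with quantile normalization on the linear scale (0.039) or before the detection filter (0.042). The same held with detection asked in at least 1 group (0.047) and with normexp background correction (0.048). Without CCl4 array 3 it was 0.017, and 0.013 with those arrays scaled to the 75th percentile. In the quantile-normalized fit of all 6 arrays, none of the 5 guides passed in limma, also with an unadjusted p under 0.05. Their median change was -0.55 against -0.14 for all 166 miRNAs. Across all miRNAs 12.0% were called, with an adjusted p under 0.05 and a change over 2-fold, and 13.3% passed the adjusted p alone. In the direction lower in CCl4 livers these shares were 4.82% and 5.42%. Of the 8 members 0 were called and 1 passed the adjusted p, in the lower direction, a count too small to set the family apart from these shares. In whole liver, fewer cells of a type and less RNA per cell cannot be told apart.

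For miR-30b-5p the normalized log2 signals were 7.66, 7.71 and 7.71 in corn oil and 6.61, 7.02 and 7.63 in CCl4 livers, a change of -0.60 (SE 0.28, limma adjusted p = 0.21). For miR-30c-5p they were 8.63, 8.55 and 8.71 against 7.66, 8.11 and 8.47, a change of -0.55 (SE 0.23, limma adjusted p = 0.18). In both guides every CCl4 liver lay below every corn oil liver, with CCl4 liver 3 nearest to the controls. The same separation held for miR-30a-3p, at 5.59, 5.90 and 5.72 against 4.55, 4.95 and 5.08, and for miR-30c-2-3p, at 3.43, 3.63 and 3.33 against 2.62, 2.83 and 3.23. Such a separation with CCl4 lower was seen in 24.7% of all 166 miRNAs and in 4 of these 8.

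The other tested arms overlapped between groups. For miR-30e-5p the normalized log2 signals were 7.53, 7.59 and 7.53 in corn oil and 6.44, 6.57 and 7.71 in CCl4 livers, a change of -0.64 (SE 0.36, limma adjusted p = 0.28). CCl4 liver 3 lay above all controls and the other CCl4 livers about 1 log2 unit below them. For miR-30d-5p, CCl4 liver 3 was level with the highest controls and the others lay below them, with 5.65, 5.72 and 6.44 in CCl4 livers against 6.39 to 6.44 in controls and a change of -0.49 (SE 0.24, limma adjusted p = 0.23). For miR-30e-3p, CCl4 liver 3 lay above the controls and the others below, with 2.83, 3.02 and 4.42 against 3.63 to 3.75 and a change of -0.28 (SE 0.45, limma adjusted p = 0.69). miR-30a-5p differed from these, since CCl4 liver 2 was its highest sample. Its values were 9.44, 9.31 and 9.31 in corn oil and 8.93, 9.52 and 8.83 in CCl4 livers, a change of -0.26 (SE 0.22, limma adjusted p = 0.46).

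**Figure D2:**
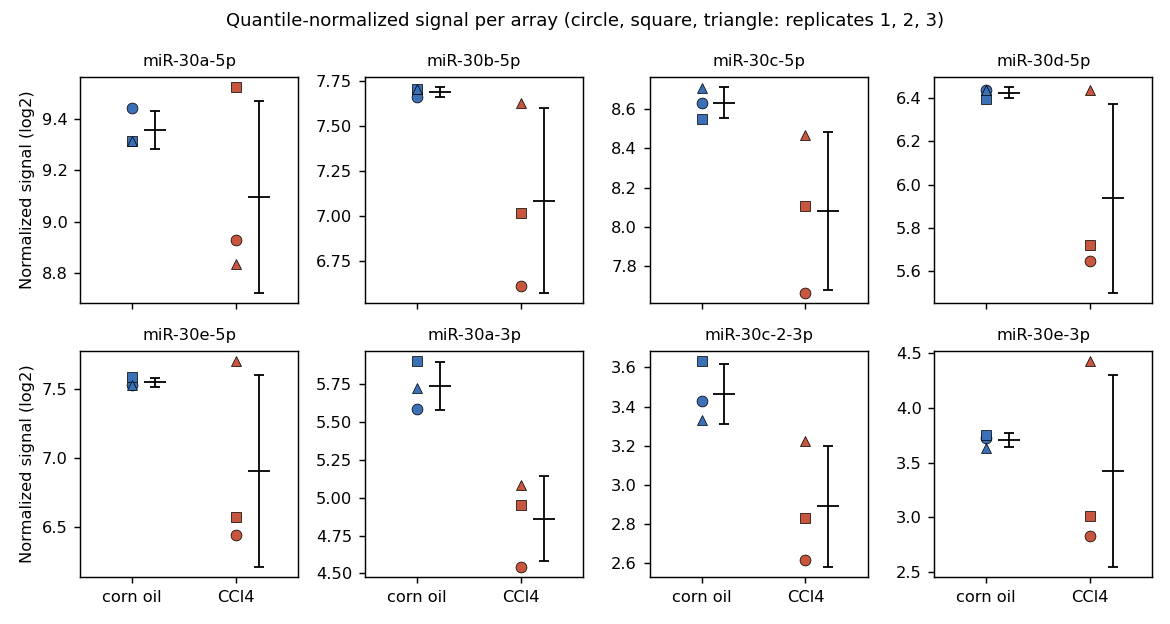
Quantile-normalized log2 signal of the 8 tested miR-30 arms in corn oil (blue) and CCl4 (red) livers, with circle, square and triangle for replicates 1 to 3 and black marks for the group mean ± SD (n = 3). CCl4 liver 3 (red triangle) is the highest of the CCl4 livers for 7 of the 8 arms and the lowest for miR-30a-5p.

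Leaving out the third CCl4 array changed the calls of the family. With the remaining 5 arrays 7 of 8 members passed an adjusted p of 0.05, all lower in CCl4 livers, where 33.7% of all miRNAs passed in that direction. The largest change was that of miR-30e-5p, at -1.03 (SE 0.06, limma adjusted p = 1.8e-03), which was also the 1 member called at the 2-fold limit, against 7.23% of all miRNAs called lower. miR-30b-5p changed by -0.87 (SE 0.13, limma adjusted p = 0.012), miR-30d-5p by -0.76 (SE 0.04, limma adjusted p = 1.8e-03) and miR-30c-5p by -0.73 (SE 0.17, limma adjusted p = 0.031). The 3p arms changed by -0.64 to -0.93. miR-30a-5p alone did not pass, at -0.12 (SE 0.21, limma adjusted p = 0.66), which is the median of all miRNAs in that fit.

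The scaling between arrays set both the size and the sign of these changes. When the same 5 arrays were scaled to their 75th percentile instead, all 8 members passed, by -0.41 to -0.79, where 38.6% of all miRNAs passed lower, and miR-30a-5p then changed by -0.62 (limma adjusted p = 0.013). Without any scaling, the 5 arrays gave changes of -0.15 to 0.23 for the guides and -0.026 to 0.073 for the 3p arms, none past an adjusted or an unadjusted p of 0.05 in limma, where 53.0% of all miRNAs passed the adjusted p. The median of all 166 miRNAs was then 0.45 higher in CCl4 livers, and all 8 members lay below that median. They also lay below the median of all miRNAs on all 6 arrays, whether quantile normalized, scaled to the 75th percentile or unscaled. Scaling to the 75th percentile shifts all miRNAs of an array alike. The distance of an arm to the median is therefore the same as in the unscaled fit, and those fits give 1 result here. The exception among normalizations of 6 arrays was quantile normalization before the detection filter, where miR-30a-5p changed by -0.26 against a median of -0.43. With another CCl4 array left out and quantile normalization, miR-30e-3p also lay above the median. It changed by -0.0069 against -0.11 without CCl4 array 1, and by -0.10 against -0.12 without CCl4 array 2. By signal as measured, the first CCl4 livers had 0.899 to 1.17 times the corn oil mean of each arm, while the median miRNA had 1.37 times.

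**Figure D3:**
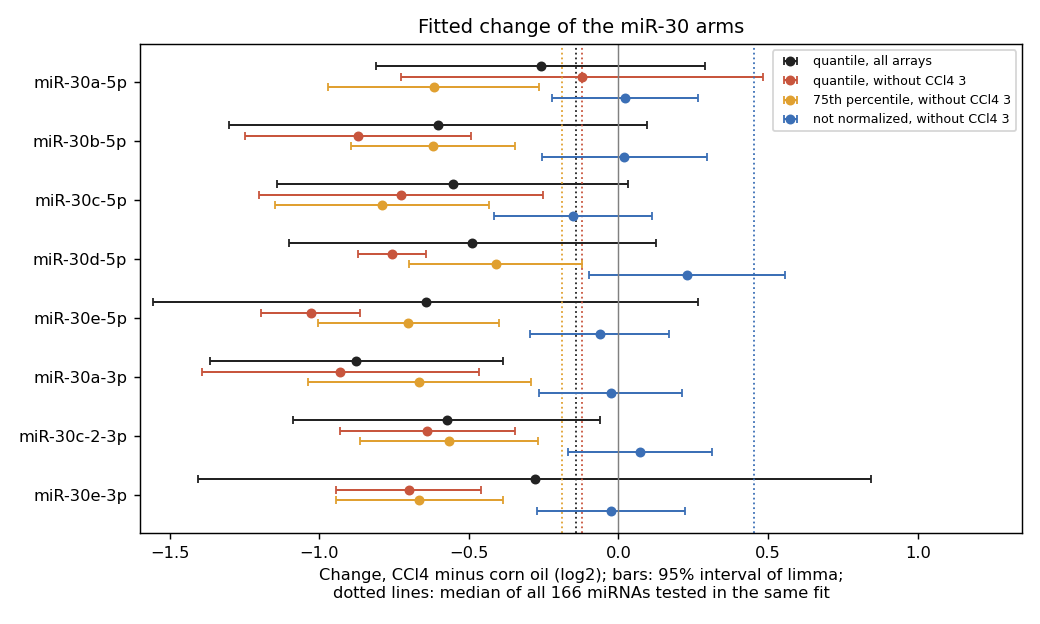
Change of each tested miR-30 arm between CCl4 and corn oil livers (log2, with the 95% interval of limma) under quantile normalization with all 6 arrays and under 3 scalings without the third CCl4 array. Dotted lines give the median of the 166 miRNAs in the fit of the same color. Unscaled changes (blue) lie near 0 with their median line at 0.45, and miR-30a-5p is near the median only under quantile normalization.

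On the third CCl4 array both arms of Mir30a and the 3p arm of Mir30c-2 gave lower ratios than the other arms. Against the mean of the other CCl4 livers, these ratios were 3.01 for miR-30a-5p, 3.16 for miR-30a-3p and 2.69 for miR-30c-2-3p. Those of the Mir30b and Mir30d pair gave 4.61 for miR-30b-5p and 4.66 for miR-30d-5p. The guide miR-30c-5p, made from Mir30c-2 as well as Mir30c-1, gave 4.62, so the arms of Mir30c-2 did not share 1 ratio, and miR-30e-5p gave 5.67. The median of all 166 miRNAs was 2.49, below every arm. For miR-30e-3p the total gave 6.30, but the probe that was counted on every array gave 4.79. These ratios compare 1 array with the mean of a pair and have no test.

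The probes of an arm kept nearly fixed shares of its signal. One probe of miR-30a-5p held 58.5% to 60.1% of that arm's signal over the 6 arrays, and 1 probe of miR-30e-5p held 79.9% to 80.5%. For miR-30b-5p the share was 84.8% to 85.6%, for miR-30c-5p 82.1% to 83.0% and for miR-30d-5p 57.0% to 58.3%. The excess of the third CCl4 array was therefore carried by every probe of these guides, from 2.96 times in 1 probe of miR-30a-5p to 5.70 times in 1 probe of miR-30e-5p.

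**Figure D4:**
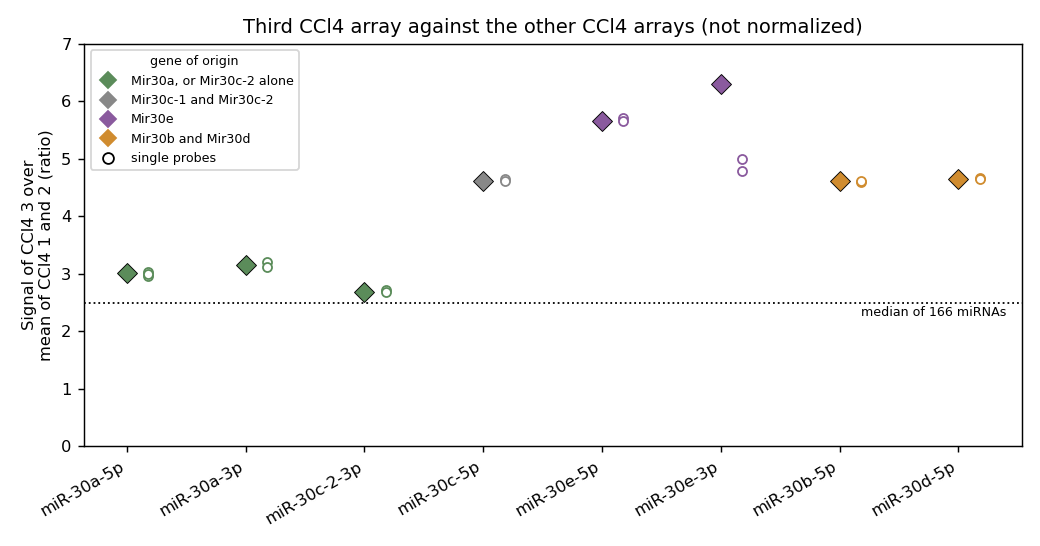
Unscaled signal of the third CCl4 array over the mean of CCl4 arrays 1 and 2 (ratio, linear axis from 0), with diamonds for the arm's total signal colored by gene of origin, open circles for its single probes and a dotted line at the median of 166 miRNAs, 2.49. Both arms of Mir30a and miR-30c-2-3p lie at 2.69 to 3.16 and the other arms at 4.61 or above, miR-30c-5p from both Mir30c genes included.

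Ratios of unscaled signals between guides within an array were compared for all 10 pairs, since a factor common to an array cancels in them. The guide miR-30c-5p was lower relative to miR-30d-5p in CCl4 livers, with log2 ratios of 2.58, 2.51 and 2.42 in corn oil and 1.97, 2.27 and 2.10 in CCl4 livers, a difference of -0.39. The ratio of miR-30b-5p to miR-30d-5p was 1.49, 1.46 and 1.38 against 1.21, 1.26 and 1.22, a difference of -0.22. The ratio of miR-30b-5p to miR-30c-5p was -1.08, -1.05 and -1.04 against -0.77, -1.01 and -0.89, a difference of 0.17. In these 3 pairs no CCl4 liver overlapped a corn oil liver, the third CCl4 liver included. The pairs are formed by the same 3 guides, so each ratio follows from the others. Pairs of other miRNAs were not compared. On unscaled signals 65.7% of single miRNAs did not overlap between groups. With quantile-normalized signals, which are not scaled by 1 factor per array, the groups overlapped in all 10 pairs. Each of the 3 pairs that did not overlap unscaled had p = 0.1 in a two-sided exact permutation test, the smallest value 3 against 3 livers allow. It was 0.33 after adjustment over the 10 pairs, so no pair passed.

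The remaining 7 pairs overlapped. The ratio of miR-30a-5p to miR-30e-5p was 2.07, 2.04 and 2.06 in corn oil livers and 2.08, 2.20 and 1.23 in CCl4 livers, with CCl4 liver 3 far below the controls and CCl4 liver 2 above them, for guides that differ at 1 base. The ratio of miR-30a-5p to miR-30d-5p was 3.43, 3.40 and 3.23 against 3.00, 3.29 and 2.51.

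**Figure D5:**
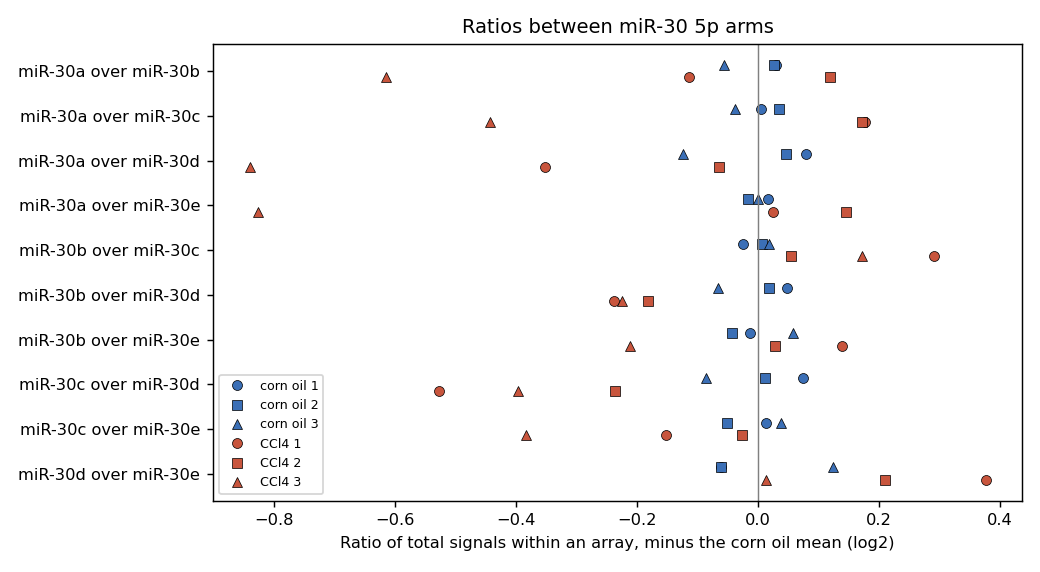
Log2 ratio of the total signals of 2 miR-30 guides within each array, minus the corn oil mean of that pair, with corn oil in blue, CCl4 in red and symbols for replicates 1 to 3. The groups separate for miR-30b over miR-30c, miR-30b over miR-30d and miR-30c over miR-30d, and the third CCl4 array is lowest for all 4 pairs led by miR-30a.

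The marker miRNAs of other cells moved on the same arrays, and their part in the values of the family was not tested. The summed signal of the 7 hepatocyte miRNAs on the array was 19015 to 20921 in corn oil livers, 15041 to 17820 in the first CCl4 livers and 3047 in the third. The 6 leukocyte miRNAs summed to 77.7 to 91.0, then 346 to 475, and 457. The 5 mesenchymal and stellate cell miRNAs summed to 67.2 to 109, then 255 to 632, and 1189. With all 6 arrays normalized, 2 of the 4 tested, miR-199a-5p and miR-199b-5p, were called higher, as were 12 of all 166 miRNAs. The endothelial miR-126 arms summed to 563 to 677, then 821 to 824, and 3732. The red cell miRNAs miR-451a and miR-144-3p summed to 466 to 754, then 315 to 730, and 2135. On the third CCl4 array the mesenchymal, endothelial and red cell sums were thus above those of all other livers, as were the miR-30 arms. The leukocyte sum lay within the range of the other CCl4 livers. These sums were not scaled between arrays. For miRNAs detected on all arrays, the median ratio of that array to the mean of the other CCl4 livers was 2.49. A higher sum there therefore does not by itself set a cell type apart. The lower hepatocyte sum on the third CCl4 array is mostly that of miR-122-5p, but others of the list were also lowest there. miR-192-5p gave 203 units there against 1004 to 1473 on the other arrays, and miR-194-5p 96.2 against 407 to 629. miR-148a-3p gave 292 against 378 to 447, and miR-122-3p and miR-802-5p were detected on all arrays but that one. Only miR-101a-3p of the list went the other way, with 297 units against 64.3 to 74.6.

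Other miRNAs described as antifibrotic or epithelial were set beside the family. Of 12 listed, 8 were tested and none was called in either direction by limma (1 had an unadjusted p under 0.05), with a median change of -0.10. Among all 166 miRNAs 12.0% were called. The collagen-targeting miR-29a-3p changed by 0.15 (limma adjusted p = 0.57) and miR-29c-3p by -0.40 (limma adjusted p = 0.46). miR-200c-3p, miR-141-3p and miR-133a-3p were detected in no liver. Without the third CCl4 array none of the 8 was called either, where 16.9% of all miRNAs were called, and their median change was -0.13. The values ran in both directions there, with miR-200b-3p at 0.72 (limma adjusted p = 0.51) and miR-200a-3p at 0.56 (limma adjusted p = 0.66), and miR-29b-3p at -0.046 (limma adjusted p = 0.36). In that fit miR-29c-3p changed by -0.78 (limma adjusted p = 0.011) and miR-101a-3p by -0.98 (limma adjusted p = 3.0e-03).

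By the pattern over the 6 normalized arrays, the miRNAs most like the mean of the guides were miR-101c (Pearson r = 0.99), miR-101a-3p (0.99) and miR-365-3p (0.98). Over the 5 arrays without the third CCl4 array they were miR-192-5p, miR-92a-3p and miR-29c-3p, and no miRNA was in both sets. The guides themselves correlated pairwise by -0.03 to 0.99 over 6 arrays and by 0.34 to 0.99 over 5. These are descriptions over arrays of 2 groups that share 1 normalization, with no test.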

How the data were processed

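The sample labels gave the groups and replicate numbers. The deposited scanner values are intensities that the authors extracted with Agilent Feature Extraction 11.0.1.1, background subtracted, summed over the detected probes of a miRNA and not normalized between arrays, with 0.1 for an undetected miRNA. A second deposited table holds intensities of 111 miRNAs that the authors quantile normalized. No spot was saturated, and each miRNA had 40 spots, so that the 3 arrays per group limit the precision.

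Log2 total signals of miRNAs detected on every array were quantile normalized, as the methods of the study describe, and entered a limma fit of treatment alone (limma 3.58.1 in R 4.3.3). A call needed a Benjamini-Hochberg adjusted p under 0.05 over the 166 miRNAs and a change over 2-fold. On simulated data for this comparison, with 20 of 166 miRNAs changed by 2 on the log2 scale in 50 runs, 64.7% were recovered and false calls numbered 1 in the median run and 4 at most. The simulated noise was independent between miRNAs, with no array standing apart, and the planted changes exceeded those of every miR-30 arm. These rates therefore do not carry over to the arms. Ratios were tested with exact permutations in scipy 1.17.1 under Python 3.11.15, with pandas 2.3.3, numpy 2.4.6 and matplotlib 3.10.9.

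The members, marker lists and tests were chosen with earlier results of these data known. Named were all members, miRNAs with their seed, all listed markers as groups and the 3 miRNAs most like the guides. Alternatives covered normalization, detection filter, probe averaging, the deposited table, the replicate number as a block and each array left out. Scalings without the third CCl4 array, and normexp with an offset of 50, were chosen after seeing the data. Gene neighbors came from RefSeq.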

Additional observations from a re-analysis of the deposited data

Results flagged for a closer look

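The 3p arms outside the comparison were listed as detected in CCl4 livers and in no corn oil liver, where single probes still gave low signals, up to 1.09 units for miR-30b-3p. miR-30c-1-3p was detected in 3 of 3 CCl4 livers, at most at 2.90 units in the third, and in no corn oil liver. miR-30b-3p was detected at 8.41 units and miR-30d-3p at 3.34 units, both in the third CCl4 liver alone, the array with the most detected miRNAs. At most 40% of the spots of any probe of these arms were well above background, and 1 probe of miR-30d-3p had 10.0% in corn oil liver 1. These signals were not tested.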

How the results depend on the processing

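Over the alternatives tried, 125 values of single arms kept their direction and side of the threshold, 12 reversed and 4 passed it where they had not. All reversals came without scaling between arrays. With all 6 arrays unscaled, the median change of the guides was 0.76, with miR-30a-5p at 0.55, miR-30b-5p at 0.76, miR-30c-5p at 0.58, miR-30d-5p at 0.97, miR-30e-5p at 0.77, miR-30a-3p at 0.53, miR-30c-2-3p at 0.55 and miR-30e-3p at 0.86, none past the threshold, beside a median of 0.99 for all miRNAs. Unscaled and without the third CCl4 array the median was 0.020, with miR-30a-5p at 0.022, miR-30b-5p at 0.020, miR-30d-5p at 0.23 and miR-30c-2-3p at 0.073. The 3p arms called numbered 2 when normalization preceded the detection filter (miR-30a-3p at -1.03 and miR-30c-2-3p at -1.47) and 1 with detection asked in at least 1 group (miR-30c-2-3p at -1.15). In the first of these fits 15 of all 166 miRNAs were called, and the median change of all was -0.43. In the second, 32 of 215 were called, and the median change of all was -0.19. Leaving out 1 array gave a median of -0.76 to -0.37 for the guides and 0 to 1 guides called. It gave 3 to 6 pairs of guides that did not overlap (5 without corn oil array 3, 6 without CCl4 array 2 or 3). Leaving out an array cannot make a separated pair of unscaled ratios overlap. That count therefore could not fall below 3, and its range is no check of the pairs. With normalized ratios of all arrays the count was 0. The 1 guide called, miR-30e-5p, was called without the third CCl4 array. Of all miRNAs, 20 were called in the comparison reported, 32 with the looser filter, 6 with none, 12 in the deposited table, 41 unscaled without the third CCl4 array, 4 with normexp and 5 to 28 with 1 array left out (5 to 7 without corn oil array 1, 2 or 3 or CCl4 array 1), and the cause was not tested. With the replicate number as a block 6 were called and no guide. Same-numbered arrays deviated together by correlations of -0.18, 0.11 and 0.03, and differently numbered ones by -0.27 to 0.24. With 3 arrays per group these values cannot decide whether the numbers pair the mice. The weak 3p arms lie near background, where 1 probe sets the value.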
